A study of Homo sapiens with 20 samples.

Results

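Long contacts within chromosomes are pairs of DNA fragments on 1 chromosome, at least 1 Mb apart, that were ligated together more often than a background model predicts. They were taken as all listed contacts with both ends on the same chromosome and a distance of 1 Mb or more, without those that had an end beside the centromere of chromosome 16 (34 to 47 Mb) or of chromosome 1. Of 766138 listed contacts 818 met this rule, 571 of them 1 to 10 Mb apart and 247 over 10 Mb apart. Listed contacts within chromosomes numbered 182303, so nearly all of them were shorter.

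The contacts came from Poised Enhancer Capture Hi-C, in which crosslinked chromatin is cut with DpnII and ligated, and products with a captured fragment, called a bait, are enriched and sequenced. There were 28903 baits, chosen for poised enhancers, and 10 conditions were sampled in duplicate libraries, 20 in all. HNES1 is a line of human embryonic stem cells in the naive state, kept on irradiated mouse embryonic fibroblasts in N2B27 medium with PD0325901, LIF, Gö6983 and XAV939. Cells passaged without feeders and moved to N2B27 with XAV939 turn primed, and they were harvested at day 1, day 3, day 5, day 7, day 10 and day 14. All HNES1 groups share this 1 line. Day 14 cells were also turned into definitive endoderm (DE) with Activin A, CHIR99021, FGF2, PI-103, BMP4 and heparin, followed by Activin A, PI-103, FGF2, LDN193189 and heparin. Other day 14 cells were turned into neuroectoderm (NE) in 10 days of A8301 and LDN193189 and sorted as CD56+ and EpCAM-. H9, an established primed embryonic stem cell line, was grown in mTeSR-E8 on Geltrex, so cell line and medium cannot be told apart in comparisons with it. No expression was measured, so the labelled cell states were not checked against markers.

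Poised enhancers lie near genes of later development and carry the repressive mark of Polycomb complexes, which silence developmental genes in stem cells. Polycomb-bound regions are known to gather in the nucleus and can touch over large distances, which is why contacts far beyond the usual reach of an enhancer are of interest at such baits. The value per contact and condition was the CHiCAGO interaction score, which is the negative log of a p-value weighted by distance, and a contact was taken as called at a score of 5 or more. Expected contact falls with distance, and the weighting makes the score stricter for distant pairs. The score column of a condition pools both of its libraries, so conditions could not be set against a replicate spread or tested against each other, and all intervals printed here are 95% intervals for counting error alone. Read depth was unknown.

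The promoter windows below show what DNA lay at the ends of such contacts. Each is the run of 200 bases just before an annotated start, read 5′ to 3′ on the gene's strand from RefSeq (GRCh38), lies wholly inside a contacting fragment, and has its CG dinucleotides in capitals, since Polycomb binds CG-rich promoters. MNX1 and NKX2-1, homeobox genes of motor neurons and of forebrain and lung, stand for joined regions of developmental genes. The bait that met the MNX1 window lay near another gene, INSIG1. PRDM8, a zinc finger gene of neurons, stands for a group seen in differentiated cells, and ROPN1 and ROPN1B for pairs of gene copies.
MNX1, chr7:157009436-157009635, minus strand: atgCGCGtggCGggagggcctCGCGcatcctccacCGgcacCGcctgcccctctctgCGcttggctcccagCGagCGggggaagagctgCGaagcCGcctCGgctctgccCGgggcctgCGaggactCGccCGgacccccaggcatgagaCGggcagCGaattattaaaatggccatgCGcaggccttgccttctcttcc
NKX2-1, chr14:36519557-36519756, minus strand: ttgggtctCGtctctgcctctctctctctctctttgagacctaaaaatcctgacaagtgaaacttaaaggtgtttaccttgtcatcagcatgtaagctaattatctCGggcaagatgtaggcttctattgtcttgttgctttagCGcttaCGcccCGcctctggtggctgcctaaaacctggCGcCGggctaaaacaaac
PRDM8, chr4:80185070-80185269, plus strand: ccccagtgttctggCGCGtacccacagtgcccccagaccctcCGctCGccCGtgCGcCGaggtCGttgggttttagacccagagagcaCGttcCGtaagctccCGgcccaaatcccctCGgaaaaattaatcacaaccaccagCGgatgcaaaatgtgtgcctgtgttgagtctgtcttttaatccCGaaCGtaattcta
ROPN1, chr3:123991359-123991558, minus strand: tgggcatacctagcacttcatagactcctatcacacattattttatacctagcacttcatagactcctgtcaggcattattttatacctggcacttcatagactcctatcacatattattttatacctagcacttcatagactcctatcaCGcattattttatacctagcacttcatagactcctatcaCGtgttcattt
ROPN1B, chr3:125968978-125969177, plus strand: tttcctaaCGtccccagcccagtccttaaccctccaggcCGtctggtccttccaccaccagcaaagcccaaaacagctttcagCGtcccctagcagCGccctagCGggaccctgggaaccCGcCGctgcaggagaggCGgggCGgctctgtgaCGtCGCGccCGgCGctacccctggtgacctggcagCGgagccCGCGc
These windows held 20 CG dinucleotides at MNX1, 7 at NKX2-1, 15 at PRDM8, 2 at ROPN1 and 17 at ROPN1B. Over all 34943 promoter windows of RefSeq the median was 9, and 48.7% held 10 or more. Windows found wholly inside a fragment of a long contact had a median of 15. At baits the median was 19 over 55 windows, close to the 18 of the 2427 windows inside any bait, and at the other ends it was 11 over 66 windows.

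The first question was how far apart the ends were. Distances from 1 to 1.5 Mb held 483 of the 571 contacts under 10 Mb, and between 3 and 10 Mb there were 14. Just inside the border, from 1 to 1.1 Mb, lay 213 contacts, and just outside it, from 0.9 to 1 Mb, lay 422. The contacts over 10 Mb had a median distance of 62695093 bp and reached 223744393 bp. Set against the DNA each bait could reach, there were 1166.5 listed contacts per 1000 baits and Gb at 1 to 10 Mb, 63.9 over 10 Mb and 6857.3 between chromosomes. The distance weighting of the score enters these densities, and its part in them was not tested. The bait lay on the lower-coordinate side in 388 contacts and on the other side in 430. Among the autosomes, chromosomes 9 and 7 had the most long contacts per 100 of their baits (4.08 and 4.05) and chromosome 19 the fewest (0.990).

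**Figure D1:**
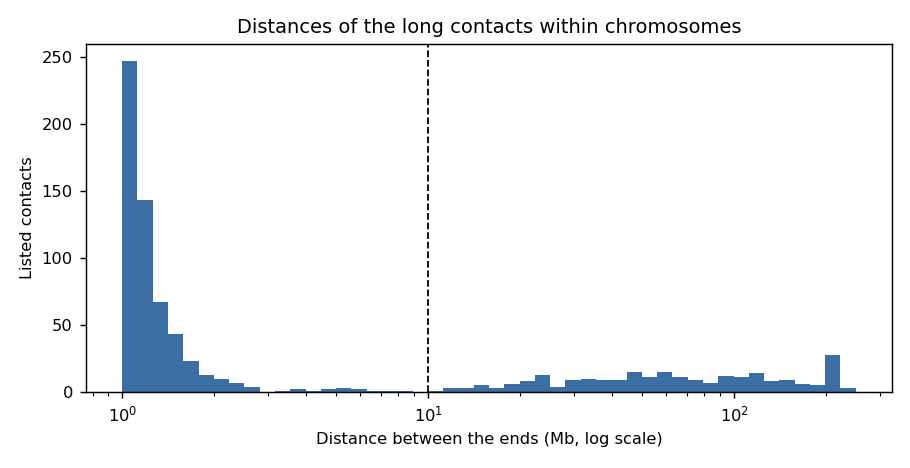
Number of listed long contacts (vertical axis) by distance between their ends in Mb (horizontal axis, log scale), with a dashed line at 10 Mb. Most of the 571 contacts left of the line lie at 1 to 1.5 Mb, few lie from 3 to 10 Mb, and the 247 right of the line spread over the whole length of the chromosomes with a narrow peak near 218 Mb.

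Few of these contacts reappeared. Of the 571 contacts at 1 to 10 Mb, 18 were called in 2 or more conditions (3.15%, Wilson interval 2.00 to 4.93), and of the 247 over 10 Mb, 13 were (5.26%, interval 3.10 to 8.80). Contacts under 1 Mb did so in 14.2% of cases and contacts between chromosomes in 0.124%. Among contacts called in a single condition, 73.2% at 1 to 10 Mb and 93.2% over 10 Mb had a score of 0 in the 9 others, against 4.83% under 1 Mb and 99.9% between chromosomes. By this measure the contacts over 10 Mb were nearer to those between chromosomes than to the short ones. At a score of 10 or more, 5 of 18 contacts at 1 to 10 Mb and 8 of 24 over 10 Mb were at that score in 2 or more conditions. When contacts with both ends within 100 kb of each other were joined into region pairs, 53 of 424 region pairs at 1 to 10 Mb were called in 2 or more conditions (12.5%, interval 9.69 to 16.0). Over 10 Mb, 7 of 218 region pairs were (3.21%, interval 1.56 to 6.48), so joining raised the share in the nearer class alone.

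How many long contacts each condition had was the next question. At 1 to 10 Mb, naive cells had 40 called contacts, and the later time points had 39 (day 1), 49 (day 3), 46 (day 5), 48 (day 7), 37 (day 10) and 25 (day 14). H9 had 70, DE 108 and NE 142. Over 10 Mb the transition had 16, 15, 12, 14, 13, 14 and 11 calls in the same order, H9 had 12, DE 96 and NE 87. Day 14 was the lowest of the 10 conditions in both classes, and DE and NE were the highest. As background, the share of all listed contacts within chromosomes that were called was 10.0%, 10.1%, 12.4%, 11.7%, 10.2%, 10.3% and 11.2% from the naive state to day 14, 13.0% for H9, 16.2% for DE and 17.9% for NE. The called share of the 571 contacts at 1 to 10 Mb was below that background at day 14 (4.38%, interval 2.98 to 6.38). Their intervals also ended below it in naive cells (at 9.40%) and at days 1 (9.20%), 3 (11.2%), 5 (10.6%) and 10 (8.80%), but not at day 7. The interval held the background in H9 (12.3%, 9.82 to 15.2) and in DE (18.9%, 15.9 to 22.3) and lay above it in NE (24.9%, 21.5 to 28.6). Over all listed contacts, which are mostly between chromosomes, it was 6.27%, 5.71%, 7.12%, 6.37%, 6.07%, 6.38% and 6.78% from the naive state to day 14, 8.12% for H9, 28.3% for DE and 24.5% for NE. The called share of the contacts over 10 Mb was 38.9% (interval 33.0 to 45.1) in DE, 35.2% (29.5 to 41.4) in NE, 6.48% in naive cells and 4.45% at day 14. A contact was listed only if it scored 5 or more in some condition. The many calls of DE and NE therefore lower the called shares of the other conditions. Fewer contacts recurred at 1 to 10 Mb (3.15%) than under 1 Mb (14.2%), which also lowers shares there against the background. How far the differences from background come from this listing was not tested.

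**Figure D2:**
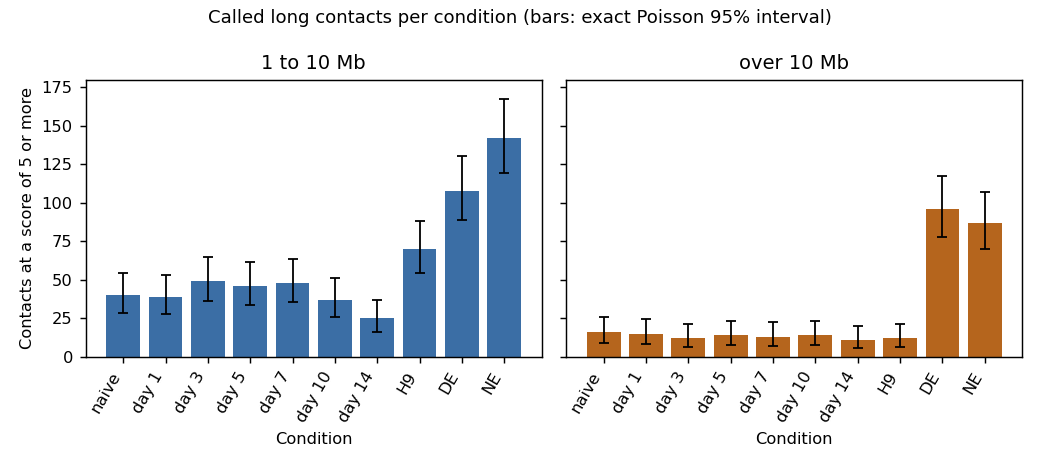
Number of contacts at a score of 5 or more (vertical axis) in each condition (horizontal axis), 1 to 10 Mb apart on the left and over 10 Mb apart on the right, with exact Poisson 95% intervals. Day 14 has the lowest bars (25 and 11), H9 rises in the left panel alone (70 against 12), and DE and NE rise in both (108 and 142 on the left, 96 and 87 on the right).

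H9 had 2.80 times the calls of day 14 at 1 to 10 Mb (exact binomial interval 1.75 to 4.62), while under 1 Mb the ratio was 1.16 and between chromosomes 1.22. Over 10 Mb it was 1.09 (interval 0.441 to 2.73). DE had 4.32 times the calls of day 14 at 1 to 10 Mb (2.78 to 6.97) and NE 5.68 times (3.70 to 9.07), against 1.44 and 1.59 under 1 Mb. Over 10 Mb the ratios were 8.73 (4.67 to 18.1) in DE and 7.91 (4.21 to 16.4) in NE, and between chromosomes 5.97 and 4.94. The ratios over 10 Mb rested on few calls at day 14, 9 of which came from a single group of baits near NBPF1 described further on. Without that group they were 46.5 and 42.5, against 2 calls at day 14, and with the intervals beside the centromeres kept they were 3.09 and 3.13. Expressed per 1000 calls between chromosomes, calls over 10 Mb ranged from 0.313 in H9 to 0.594 at day 1, with 0.514 in DE and 0.563 in NE. Expressed per 1000 calls under 1 Mb, day 14 had 1.22 calls at 1 to 10 Mb, while H9 had 2.96, DE 3.69 and NE 4.39. When a score of 10 was asked for, 10 calls over 10 Mb were left in DE, 7 in NE and 6 at day 14. Most of the excess over day 14 in these counts thus lay in calls of scores under 10. The NBPF1 group was not left out here, and outside it day 14 had only 2 calls over 10 Mb at a score of 5 or more. The background at a score of 10, over all listed contacts within chromosomes, was 0.184% for naive, 0.176%, 0.272%, 0.234%, 0.189%, 0.184% and 0.230% for the later time points in order, 0.335% for H9, 0.444% for DE and 0.572% for NE. Naive cells had 1.60 times the calls of day 14 at 1 to 10 Mb, with an interval of 0.947 to 2.75 that holds 1. DE had 0.761 times the calls of NE at 1 to 10 Mb (0.587 to 0.984) and 1.10 times over 10 Mb (0.817 to 1.49). Day 14 and H9 shared 3 calls at 1 to 10 Mb (12% of those of day 14 and 4.29% of those of H9), and DE and NE shared 7 (6.48% and 4.93%). Under 1 Mb the shares were 8.48% of day 14 and 7.32% of H9, and 12.6% of DE and 11.4% of NE.

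Over the 7 time points of the transition the number of calls at 1 to 10 Mb had a Pearson r of -0.60 with the day (two-sided exact permutation p 0.151, adjusted to 0.193 over 4 measures), and the Spearman rho was -0.43 (exact p 0.354, adjusted to 0.354). For the number over 10 Mb r was -0.71 (exact p 0.0774, adjusted to 0.193), and Spearman's rho was -0.72 (exact p 0.0770, adjusted to 0.308). As shares of all calls within chromosomes, r was -0.65 (exact p 0.110) and -0.56 (exact p 0.193), both adjusted to 0.193, and rho was -0.54 (exact p 0.236) and -0.50 (exact p 0.267), both adjusted to 0.354. None passed a threshold of 0.05, and the smallest p these 7 points allow is 0.000397. Without the naive state and day 14, r was -0.22 and -0.10 for the numbers and -0.01 and 0.07 for the shares, so the relation rested on those points.

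In H9, long contacts often joined a pair of developmental genes. A list of 415 genes of development held homeobox, forkhead, SOX, T-box, bHLH, GATA, TFAP2 and related transcription factors and signalling molecules. Both ends lay within 50 kb of such genes, not of the same gene alone, in 19 of the 70 calls of H9 at 1 to 10 Mb (27.1%, Wilson interval 18.1 to 38.5). At day 14 this held for 4 of 25 (16%, 6.40 to 34.7), at day 5 for 3 of 46, at day 3 for 2 of 49 and at day 10 for 1 of 37. Naive cells had 0 of 40 (interval up to 8.76%), day 1 had 0 of 39 and day 7 had 0 of 48. In DE it held for 3 of 108 (2.78%, 0.949 to 7.85) and in NE for 2 of 142 (1.41%, 0.387 to 4.99). The interval of H9 did not overlap those of DE, NE and naive cells. It did overlap that of day 14. Among calls from 500 kb to 1 Mb the share was between 0.237% in NE and 1.37% at day 10, with 1.05% in H9. Over all conditions 32 of 571 contacts at 1 to 10 Mb (5.60%, 4.00 to 7.80) joined such pairs, against 125 of 16819 (0.743%) at 500 kb to 1 Mb and 2 of 247 over 10 Mb.

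The bait alone was near a listed gene in 35 of the 70 calls of H9 (50%, 38.6 to 61.4) and in 8 of 25 at day 14 (32%, 17.2 to 51.6). It was so in 24.1% of the calls of DE, 25.4% of NE, 10% of naive cells and 19.3% of all contacts from 500 kb to 1 Mb. Neighbouring baits of 1 locus are not independent. Counted by region pair, 6 of the 44 region pairs called in H9 joined developmental genes (13.6%, 6.40 to 26.7), 3 of 23 at day 14, 2 of 82 in DE (interval 0.671 to 8.46), 1 of 118 in NE and 0 of 38 in naive cells (interval up to 9.18%). Counted in this way the interval of H9 overlapped those of DE and of naive cells. Over all conditions 9 of 424 region pairs did.

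**Figure D3:**
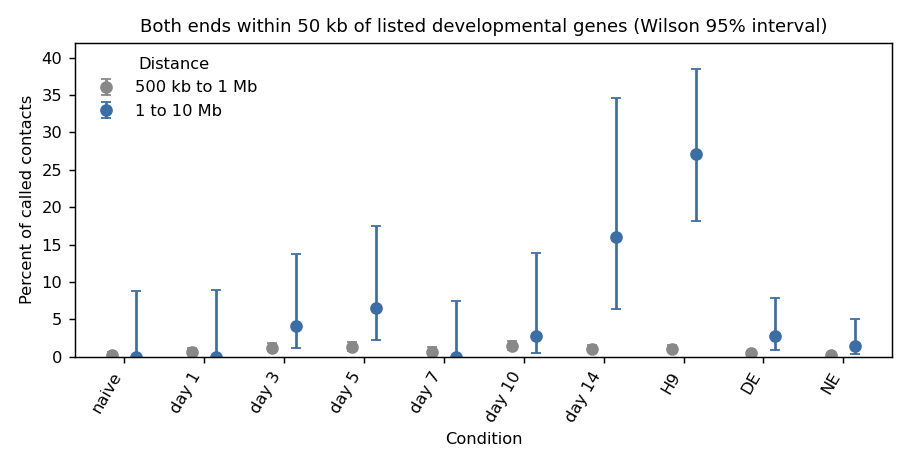
Percent of called contacts with both ends within 50 kb of listed developmental genes (vertical axis) in each condition (horizontal axis), for contacts from 500 kb to 1 Mb in grey and from 1 to 10 Mb in blue, with Wilson 95% intervals. H9 has the highest blue point (27.1%), followed by day 14 (16%), and the grey points stay under 1.4%.

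Among the joined pairs of developmental regions, MNX1 and EN2 had the most contacts. EN2, a homeobox gene of the midbrain and hindbrain, and its neighbour CNPY1 lie about 1.5 Mb from MNX1 on chromosome 7, and 10 contacts from 9 baits joined the regions, 5 of them called in H9, 2 each at days 3 and 5 and 1 each at day 14 and in DE. The strongest ran from a bait beside MNX1 (chr7:157004342-157004851) to the fragments before EN2 (chr7:155450733-155456894) and scored 10.5 in H9, 6.44 at day 14 and 0 in the other 8 conditions. The MNX1 promoter shown above lay in the other end of a contact with a bait near INSIG1, not at EN2, that scored 8.17 in H9 and 0.384 at day 14. At day 5 the called baits were different ones, with scores of 7.81 and 7.61, and both had 0 in H9. Naive cells, day 1, day 7 and day 10 had a score of 0 at all 10 contacts. SHH, a secreted signal that patterns limb and neural tube, lies between these genes. A bait beside MNX1 touched SHH at 1214953 bp, with scores of 5.88 at day 3 and 6.18 in H9 and 0 elsewhere.

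NKX2-1 and FOXA1, a forkhead factor of endoderm that opens chromatin, were joined by 9 contacts from 6 baits on chromosome 14, together with NKX2-8 beside NKX2-1. H9 had 6 of the calls, day 14 had 2 and day 10 had 1, and no other condition had any. A bait at FOXA1 (chr14:37587512-37589094) scored 7.23 in H9 with the fragment next to NKX2-1, and 1.84 in DE, 0.706 at day 7 and 0.402 at day 1. The same bait scored 6.22 at day 14 with the fragment that holds the NKX2-1 promoter shown above, against 2.34 at day 10 and 1.92 in H9. Of the 9 contacts 4 ran from bait to bait, and the pair of baits 1081567 bp apart was listed from both of its ends with scores of 5.41 and 5.11, both in H9.

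NKX2-5 and MSX2, homeobox genes of the heart and of skull and limb, lie about 1.5 Mb apart on chromosome 5. They were joined by 6 contacts from 5 baits, all of them called in H9 and in no other condition. Their scores in H9 ran from 5.03 to 10.8, and outside H9 the highest score was 0.479, at day 1. A bait pair was again listed from both sides, at 6.59 and 5.03. NKX2-2, a gene of ventral neural tube and pancreas, and FOXA2, a factor of endoderm and floor plate, were joined by a contact of 10.3 in H9 and by another, from the FOXA2 side, of 6.59 at day 5. LHX5, a LIM homeobox gene of the forebrain, scored 5.72 with the fragment near TBX3, a T-box gene, at day 14 and 1.16 at day 7. ONECUT2, a homeobox gene of liver and neurons, scored 5.21 in H9 with a fragment at GRP, which lies within 50 kb of RAX, an eye field gene.

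In NE the joined pair was another. LHX1, a LIM homeobox gene of neural and kidney progenitors, and NEUROD2, a bHLH gene of neurons, lie 2658612 bp apart on chromosome 17, and their baits scored 6.94 and 6.13 with each other in NE. Both listings were at 0 in all other 9 conditions. In DE, NKX2-2 was joined to the region of INSM1, a zinc finger gene of endocrine and neural cells, by contacts of 5.67 and 5.04, and both were at 0 elsewhere. Over 10 Mb the 2 such contacts joined PRRX1, a homeobox gene of limb mesenchyme, to GLIS1 over 117008001 bp (7.53) and DLX2, a forebrain homeobox gene, to the region of GLI2 over 51380367 bp (5.11), both called in NE alone.

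**Figure D4:**
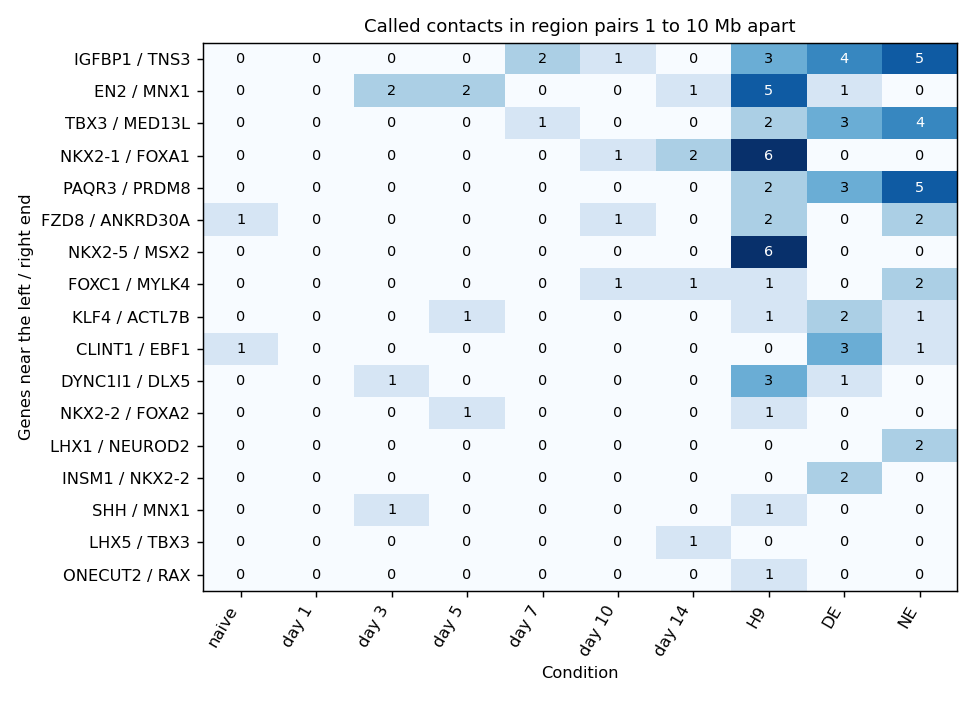
Number of called contacts (cell values) in each condition (horizontal axis) for region pairs 1 to 10 Mb apart (vertical axis, genes near the left and right end), showing pairs of developmental regions and pairs with 5 or more contacts and a listed developmental gene, plus IGFBP1. EN2 with MNX1 (5), NKX2-1 with FOXA1 (6) and NKX2-5 with MSX2 (6) have their highest values in H9, while IGFBP1, TBX3 and PRDM8 have theirs in NE (5, 4 and 5).

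Other groups had a gene at the bait and DNA with no listed developmental gene at the far end. IGFBP1 and IGFBP3, neighbouring genes of proteins that bind insulin-like growth factors, made 13 contacts with a region near TNS3 on chromosome 7, of which NE had 5 calls, DE 4, H9 3, day 7 2 and day 10 1. The bait in IGFBP3 scored 8.69 in NE, 5.21 in DE, 5.14 in H9 and 2.10 at day 14 with the fragment at chr7:47086904-47092385, and at most 0.475 in the other conditions. PRDM8, whose promoter is shown above, made 8 contacts with a region at PAQR3, with 5 calls in NE, 3 in DE, 2 in H9 and 0 in the 7 time points, where the highest score was 0.919. The bait that holds that promoter scored 6.23 in DE and 0 in the other 9 conditions, while the next bait, chr4:80185721-80186052, scored 6.29 in NE and 5.23 in H9 and 0 in the other 8. TBX3 made 10 contacts with a stretch before MED13L, with 4 calls in NE, 3 in DE, 2 in H9 and 1 at day 7, and its highest score was 9.71 in DE. In each of these 3 groups most calls came from the differentiated cells. DE and NE also had the most calls over all contacts at 1 to 10 Mb (108 and 142), against 70 in H9 and 25 to 49 at the time points. Whether the groups differ from that background was not tested.

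KLF4, a factor of naive pluripotency, made 5 contacts with a region beyond ACTL7B, 2 of them called in DE and 1 each in NE, in H9 and at day 5, with scores between 5.08 and 6.94. A further 2 contacts of KLF4, with DNA beyond that region, were called in DE alone, as high as 9.51. FZD8, a WNT receptor gene, made 6 contacts, 2 in H9, 2 in NE and 1 each at day 10 and in naive cells, with scores as high as 9.90 in H9 and 7.80 in naive cells. DLX5, a homeobox gene of bone and forebrain, touched DYNC1I1 in 5 contacts, 3 of them called in H9, and the highest score was 10.1 in DE. FOXC1, a forkhead gene of mesenchyme and eye, had 5 contacts near MYLK4, 2 in NE and 1 each at day 10, day 14 and in H9. RGMA, a guidance molecule of axons, had a bait that scored 10.5 in NE and 6.46 in DE with chr15:94119911-94125056, and at most 1.43 in the other conditions.

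Some of the stronger contacts stood alone in their condition. A bait near CFAP299 scored 13.0 in NE with a fragment near PAQR3 and 0 in the other 9 conditions. MAP2, a gene of a neuronal microtubule protein, scored 9.71 in naive cells with a fragment at PTH2R over 1042925 bp, 2.30 in H9 and 0.442 at day 7, with 0 elsewhere. NCKAP1L, a gene of an actin regulator of blood cells, scored 8.59 at day 10 with a fragment at TMT1B and 1.66 in H9, with 0 elsewhere. RHOJ, a small GTPase gene of endothelium, scored 8.56 at day 7 with a fragment beyond SYT16, and between 0 and 2.79 in the other conditions. In these last 3 cases the days on either side of the call, where there were any, lay below 5. The regions of the RHOJ contact were not called at day 7 alone, since another bait there scored 6.16 in naive cells.

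By gene family, long contacts were linked to genes that overlapped a fragment anywhere along their length or lay within 1 kb of it. Of all 19935 protein-coding genes 674 had a long contact in some condition (3.38%, interval 3.14 to 3.64). NK, ParaHox and other homeobox genes of the ANTP class had one in 10 of 57, GATA, TFAP2 and zinc finger developmental genes in 14 of 49, LIM, TALE, POU and related homeobox genes in 6 of 44 and HOX genes in 4 of 39. For PRD and PAX genes it was 3 of 38, for forkhead genes 3 of 28, for bHLH genes 3 of 47, for T-box genes 1 of 17 and for SOX genes 0 of 19. Signalling genes had 8 of 77, pluripotency genes 2 of 37, Polycomb genes 1 of 35 and housekeeping genes 0 of 30. The baits were chosen for poised enhancers, and the part of that choice in these counts was not tested. As background by condition, of the 674 genes with a long contact, 56 had a call in H9, 203 in DE and 208 in NE. At days 1, 3, 5, 7 and 14 the numbers were 48, 58, 53, 61 and 25. Among the ANTP genes, calls in H9 reached 7 genes, namely MNX1 with 4, NKX2-1 and MSX2 with 3 each, and DLX5, NKX2-2, NKX2-5 and NKX2-8 with 1 each. The zinc finger group had calls at 7 genes in NE and 5 in DE, at 2 each at days 1, 3 and 5 and at 1 each at day 7 and in H9. In NE and DE it was led by PRDM8 with 4 in NE and 2 in DE, TFAP2B with 2 in NE, and KLF4 with 3 in DE. HOX genes, the patterning genes of the body axis, had long contacts in DE that included HOXA3, HOXA5 and HOXD11, and HOXA3 also had one at day 14. With a link of 5 kb, HOX calls numbered 6 in DE, 2 at day 14 and 1 each at day 3, in H9 and in NE. Beyond the 1 kb link, contacts of a region whose nearest gene was HOXD4 scored as high as 11.7 in H9 and 5.84 in NE. JARID2, a Polycomb subunit, had 1 call each in DE and NE.

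Of 66 protocadherin genes 16 counted as linked, and 14 of these shared a single contact in DE. These were alpha cluster genes whose annotated spans all lay at or within 1 kb of a single bait. That bait scored 5.30 with a fragment 86258382 bp away. Olfactory receptor genes had 0 of 392 and histone genes 0 of 79.

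The most recurrent contacts over 10 Mb joined the ends of chromosome 1. Baits at and near NBPF1 (chr1:16612488-16761190), a gene of a duplicated family, made 14 contacts with 2 adjoining fragments at chr1:234776117-234786738, about 218 Mb away, whose nearest protein-coding gene, IRF2BP2, lay 165939 bp off. A bait next to the tRNA gene TRG-CCC5-1 (chr1:16727106-16727633) was called with the fragment from 234781219 in all 10 conditions, with scores of 15.9 in naive cells, 14.7, 34.3, 28.4, 39.2, 19.0 and 50.4 along the transition, 38.6 in H9, 85.8 in DE and 125.3 in NE. No other long contact was called in all 10. With the fragment before it, the same bait scored 156.5 at day 1 and between 27.8 and 28.4 in naive cells, at days 5, 7, 10 and 14 and in H9, and 0 at day 3, in DE and in NE. A neighbouring bait (chr1:16727715-16728089) was also at 0 with that fragment at day 3, in DE and in NE, and scored 61.5 at day 5. Of the 11 contacts over 10 Mb called in 3 or more conditions, these baits and a bait near CROCC made 8. Without the NBPF1 group, day 14 kept 2 calls over 10 Mb, naive cells 12, H9 6, DE 93 and NE 85.

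Several other recurrent contacts or region pairs joined genes of 1 family, and where near-identical copies share reads the place of a contact is uncertain. KRTAP5-2 and KRTAP5-10, keratin-associated genes of 1 family 69964403 bp apart on chromosome 11, were joined by 4 contacts from 3 baits, with 4 calls in DE (7.94 to 20.7), 2 in naive cells (8.93 and 7.74), 1 at day 1 (7.70), 1 at day 10 (8.38) and 1 in NE (8.15). ROPN1 and ROPN1B, copies of a sperm protein gene whose promoters are shown above, scored 16.2 at day 10, 6.98 at day 1 and 4.30 in NE. LRRC37A3 and LRRC37A on chromosome 17 were joined at days 3, 5 and 7 and in DE, by 4 contacts of 1 bait. Each of these was called in 1 condition alone, with scores of 5.35, 5.38, 5.09 and 8.17. The remaining contacts named here were not linked to genes of 1 family at both ends. On chromosome 9, 5 contacts near ZNG1F, 22592353 bp from their other ends, had 4 calls in NE and 1 in DE, the highest at 16.0. On chromosome 20 a single bait (chr20:30812598-30813114) made 6 contacts over 2191839 to 2251765 bp beside the centromere, called in 9 conditions and highest at 25.2 in DE. A bait near MSMB on chromosome 10 scored 10.6 in naive cells, 11.01 at day 1, 8.24 at day 10, 16.9 in DE and 11.2 in NE with a fragment at ZNF488. A bait near COX7C scored 15.0 at day 1, 5.03 at day 3, 10.7 in DE and 25.0 in NE with DTWD2 at 32968258 bp. The ends were not compared in sequence, and the part of shared sequence in these contacts was not tested.

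**Figure D5:**
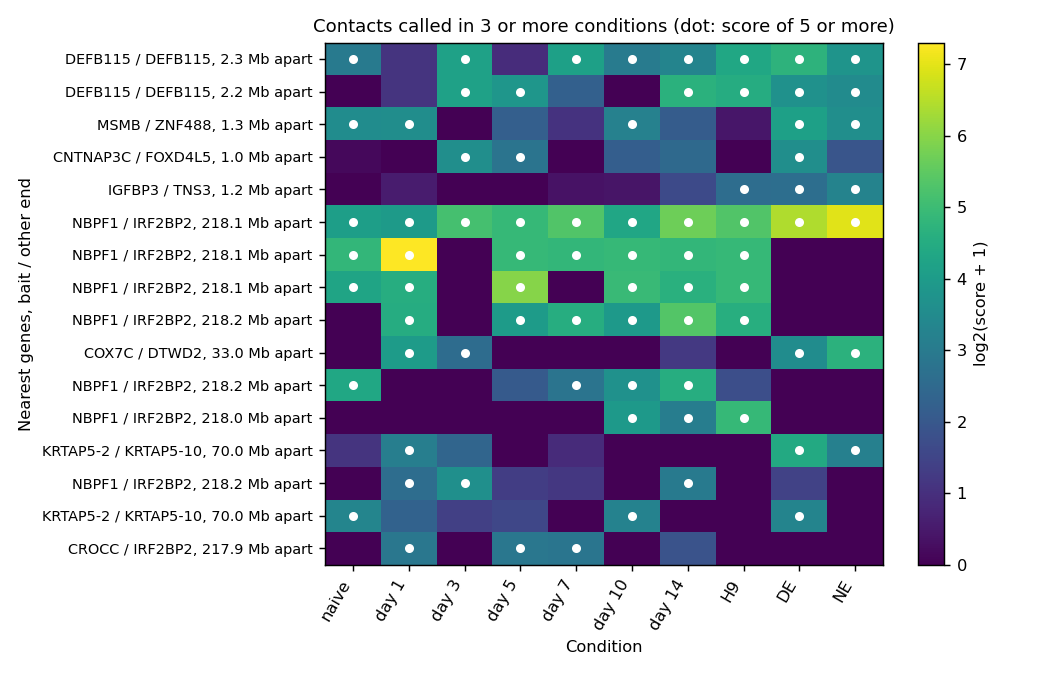
Scores as log2(score + 1) (colour) of the 16 contacts called in 3 or more conditions, named by the nearest genes of bait and other end, in each condition (horizontal axis), with a dot at scores of 5 or more. The contacts of NBPF1 with the region of IRF2BP2 are the brightest, 1 of them carries a dot in all 10 conditions, and the next 3 are dark in DE and NE.

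Baits of the recurrent contacts also had many contacts elsewhere. Over the 16 contacts called in 3 or more conditions, the bait had a median of 50.5 listed contacts between chromosomes. The median was 23 over all contacts at 1 to 10 Mb, 20 over those over 10 Mb and 17 over all 28903 baits. In the medians over contacts, a bait with several long contacts, as in the NBPF1 group, counted once for each. In the median over all baits each counted once. A bait in NBPF1 (chr1:16612488-16612690) had 344. Of the contacts at 1 to 10 Mb, 95.1% had a bait that also had a contact under 1 Mb, and of those over 10 Mb 83.8%. Among all baits, each counted once, 87.1% had a contact under 1 Mb. Contacts from bait to bait made up 24 of the 818 listings and 17 distinct pairs, of which NE had 6, DE 5 and H9 3, and 7 pairs were listed from both baits. Besides the pairs above they included KCNK4 with POLA2 at day 5 (5.36 and 5.17) and FMOD with SLC60A1 at day 1 (5.27 and 5.22).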

How the data were processed

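Poised Enhancer Capture Hi-C libraries of 10 conditions, 2 per condition, were represented by a matrix with 1 score column per condition, to which the labels assign both libraries. The values are CHiCAGO interaction scores computed by the authors per pair of fragments, per the labels, used as deposited with no further normalisation. The distance column, in bp, was deposited by the authors too. Coordinates are on GRCh38, per the submitters' processing notes; the aligner, the version of CHiCAGO and the binning are not given in the sources used here. Baits had a median length of 622 bp and the other ends a mean length of 5256 bp. Every listed contact reached a score of 5 in some condition, and depth per library was unknown.

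Contacts were counted per condition and distance class, a bait pair listed from both baits counting as 2 contacts unless stated. Ratios had exact binomial intervals, counts exact Poisson intervals and shares Wilson intervals, all at 95%. Correlations with the day used two-sided exact permutation tests over the 5040 orders of the time points, with Benjamini-Hochberg adjustment. Genes came from RefSeq (GRCh38). A gene was linked where a fragment overlapped any part of it or lay within 1 kb (50 kb for developmental genes). Promoter windows on chromosome 8 were not used. Region pairs joined contacts with both ends within 100 kb. Named contacts were those called in the most conditions, the 2 highest per condition and class, the long bait-to-bait pairs, and named genes the 3 per list with the most long calls and the largest changes against day 14. The region pairs of developmental genes and the other groups of several contacts were chosen after their values were seen. The members and gene lists were chosen with earlier results of these data known. Counting, region pairs and the permutation test were tested on simulated data. Alternatives were score thresholds of 3 and 10, an equal number of top contacts, pairs counted once, baits counted once, no bait-to-bait contacts, the chromosome 1 and 16 intervals kept, the baits with most contacts between chromosomes left out, merged other ends and a gene link of 5 kb. Python 3.11.15 with pandas 2.3.3, numpy 2.4.6, scipy 1.17.1 and matplotlib 3.10.9 was used.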

Additional observations from a re-analysis of the deposited data

Results flagged for a closer look

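Long contacts with an end in the intervals beside the centromeres of chromosomes 1 and 16 numbered 87, of which 1 lay 1 to 10 Mb apart and 86 over 10 Mb. They were left out of every comparison above and stand out as a signal in data not otherwise used, beside the 247 contacts over 10 Mb that were kept.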

How the results depend on the processing

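No paired analysis was possible because the score column of a condition pools its libraries, and for the same reason leaving out a library could not be done. Of 137 answers recomputed under an alternative, 24 moved, 3 correlations changed sign and 110 stayed within the interval of the reported value or, for counts of genes and pairs, within 1.5 times it, or kept the sign of a correlation. Of those 110, 8 were ratios of calls, each with a reported interval that holds 0 on the log2 scale, that changed sign or came to equal counts. As log2 ratios to day 14, calls at 1 to 10 Mb were 2.81 in H9 and 2.81 in DE at a score of 10 (7 calls against 1 in both), and 1.39 in DE and 1.86 in NE with an equal number of top contacts. Over 10 Mb they were 0.74 in DE and 0.22 in NE at a score of 10, and 1.63 and 1.65 with the chromosome 1 and 16 intervals kept. Without the NBPF1 group, an alternative chosen after seeing the data, they were 2.58 in naive cells, 1.58 in H9, 5.54 in DE and 5.41 in NE, since day 14 kept 2 calls. Bait pairs numbered 3 at a score of 10 and 34 with the intervals kept. The share of contacts in 2 or more conditions was 27.8% at 1 to 10 Mb and 33.3% over 10 Mb at a score of 10, 4.97% at 1 to 10 Mb with other ends within 10 kb merged, and 12.5% by region pair, chosen after seeing the data. With the day, the number over 10 Mb had r 0.44 at a score of 10, and its share had r 0.25 at a score of 10 and 0.0701 without the naive state and day 14; no test of these passed in any setting and the cause was not tested. With a gene link of 5 kb, HOX genes with a long contact numbered 9, PRD and PAX 7, forkhead 6, bHLH 6 and Polycomb 2. The share of developmental pairs in H9 was 13.6% with each region pair counted once, 22.9% with genes within 20 kb, 28.6% within 100 kb and 20.3% without 1 of the 2 region pairs that held most such contacts, all chosen after seeing the data. Counts of 11 to 16 over 10 Mb in the pluripotent conditions limit every ratio there, and the unknown depth limits every comparison of numbers between conditions.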

Other observations

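On chromosome 1 the scores of the NBPF1 group lay with different fragments in different conditions. With the fragment from 234776117, every bait of the NBPF1 group was at 0 at day 3, in DE and in NE, while with the adjoining fragment from 234781219 the bait next to TRG-CCC5-1 scored 34.3, 85.8 and 125.3 in those 3 conditions. Equal scores also recurred, with 28.4 in 4 entries of the bait next to TRG-CCC5-1 and 27.8 in 3. A tally of both fragments together was not made.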
